A study of Mus musculus with 6 samples.

Results

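The laminin genes encode the chains of laminin, the large glycoprotein that forms the sheet of a basement membrane together with collagen IV. The 9 genes *Lama1*, *Lama2*, *Lama3*, *Lama4*, *Lama5*, *Lamb1*, *Lamb2*, *Lamc1* and *Lamc3* were taken by their GENCODE release M21 symbols out of the 18254 genes of the deposited table. *Lamb3*, a beta chain gene outside the selection, is given for comparison only. All 9 genes had a mean of at least 5 normalized counts and were among the 16714 genes tested.

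The values are from RNA sequencing of the medial prefrontal cortex (mPFC), dissected from male C57BL/6J mice aged 10 to 12 weeks. The groups were *Shank3* transgenic mice (TG), which carry an EGFP-*Shank3* transgene and overexpress this scaffold protein of excitatory synapses, and wild-type (WT) mice. Each genotype had 3 libraries, and each library was a pool of the mPFC of 2 mice, so that the spread reported here is between pools. The promoter that drives the transgene is not given in the sources used here.

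A laminin molecule is a trimer of an alpha, a beta and a gamma chain, and the alpha chain carries the main binding sites for cell surface receptors. In the brain, laminins lie in the basement membranes of blood vessels, under the endothelium and under the astrocyte endfeet, and in the pial basement membrane below the meninges. Endothelial cells, pericytes, smooth muscle cells, fibroblasts of the leptomeninges and astrocytes each make different chains. In a bulk library, fewer cells of a type and less RNA per cell cannot be told apart.

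The values of a library summed to between 28363967 and 29447717 normalized counts. *Shank3*, the gene carried by the transgene, was present at 16310 to 19003 normalized counts in *Shank3* TG against 6791 to 8374 in WT, which is a log2 fold change of 1.18 with a standard error (SE) of 0.10. The deviations of TG-3 and WT-3 from their genotype means correlated at 0.62 across genes, against 0.30 and 0.33 for the numbers 1 and 2, so values without these libraries are given for the laminin genes. Transcripts of cortical neurons were present, although they do not mark the mPFC among cortical regions: *Snap25* and *Slc17a7*, genes of synaptic vesicle fusion and of glutamate loading into vesicles, had 83906 to 93636 and 39217 to 45669 normalized counts over the 6 libraries. Markers of the cells that line basement membranes were also present, with means of 3113 for *Slc2a1* of endothelium, 3292 for *Rgs5* of mural cells and 1908 for *Igf2* of the leptomeninges.

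Among the laminin genes, *Lama5* and *Lamb1* were higher in every *Shank3* TG library than in all WT libraries, by 1.32-fold and 1.24-fold from the fitted log2 fold changes. By the same measure *Lama4* was higher by 1.33-fold, and it was higher at each replicate number, although its groups overlapped. The other 6 genes differed by at most 0.14 on the log2 scale in either direction. After adjustment no laminin gene passed limma's threshold of 0.05, and of all tested genes 0.0% passed it. *Shank3* itself, the gene of the transgene, had a limma p-value of 0.0643 after adjustment. A gene that was not called in this model is therefore not shown to be unchanged.

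For *Lama5*, *Lamb1*, *Lama2* and *Lamb2*, the promoter windows of RefSeq on GRCm38.p6 are shown, from 250 bases before the RefSeq start to 50 bases after it. This start is also the GENCODE gene start for *Lama5*, and it lies 59 bases downstream of it for *Lamb1*, 126 for *Lamb2* and 2816 for *Lama2*, whose window is therefore inside the gene as GENCODE draws it. These 4 were the laminin genes for which a window was at hand, and they were not picked as a contrast. They include the 2 genes without overlap between the genotypes, and an alpha and a beta gene with overlapping groups. Capitals mark matches to 5 motifs searched on both strands, the GC box (GGGCGG), the CCAAT box (CCAAT), the TATA box (TATAAA), the E-box (CACGTG) and the ETS core (CGGAAG).
Lama5 promoter (chr2:180225810-180226109, minus strand): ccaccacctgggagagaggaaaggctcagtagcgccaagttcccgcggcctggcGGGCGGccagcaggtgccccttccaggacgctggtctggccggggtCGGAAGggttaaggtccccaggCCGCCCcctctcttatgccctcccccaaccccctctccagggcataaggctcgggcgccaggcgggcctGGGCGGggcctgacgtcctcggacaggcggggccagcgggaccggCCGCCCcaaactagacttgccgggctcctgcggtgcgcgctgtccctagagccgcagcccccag
Lamb1 promoter (chr12:31265043-31265342, plus strand): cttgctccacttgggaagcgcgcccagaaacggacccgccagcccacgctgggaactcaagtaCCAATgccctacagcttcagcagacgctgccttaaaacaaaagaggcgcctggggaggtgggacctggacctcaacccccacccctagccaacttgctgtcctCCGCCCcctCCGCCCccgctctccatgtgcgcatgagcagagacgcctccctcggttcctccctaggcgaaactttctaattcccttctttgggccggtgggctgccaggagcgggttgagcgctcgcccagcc
Lama2 promoter (chr10:27616893-27617192, minus strand): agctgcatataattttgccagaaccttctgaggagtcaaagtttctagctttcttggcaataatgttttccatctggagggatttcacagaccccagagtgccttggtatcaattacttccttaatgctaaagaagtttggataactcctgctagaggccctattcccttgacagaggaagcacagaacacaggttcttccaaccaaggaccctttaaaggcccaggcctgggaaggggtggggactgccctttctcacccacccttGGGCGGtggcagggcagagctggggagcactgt
Lamb2 promoter (chr9:108479612-108479911, plus strand): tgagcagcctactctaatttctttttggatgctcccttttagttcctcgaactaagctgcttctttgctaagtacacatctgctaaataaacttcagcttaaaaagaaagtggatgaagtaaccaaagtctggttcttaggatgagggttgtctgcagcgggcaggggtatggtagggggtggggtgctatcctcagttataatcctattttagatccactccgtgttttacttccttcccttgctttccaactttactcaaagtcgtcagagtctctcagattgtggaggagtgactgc

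The *Lama5* window held 4 GC boxes and 1 ETS core, and the *Lamb1* window held 2 GC boxes and 1 CCAAT box. The *Lama2* window held 1 GC box and the *Lamb2* window no match to the 5 motifs, and no match shared bases with another. Of 32851 promoter windows, 35.7% held a GC box, 37.4% a CCAAT box, 13.6% a TATA box, 7.15% an E-box and 16.9% an ETS core. The share of G and C was 72.7% for *Lama5* and 63.7% for *Lamb1*, against 44.0% for *Lamb2*, 50.3% for *Lama2* and a median of 52.7% over all windows. The *Lama2* window lies inside the gene as GENCODE draws it, so its share is not that of the GENCODE start. These are matches of letters and were not tested for binding.

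*Lama5* (ENSMUSG00000015647) lies on chromosome 2 from 180176373 to 180225859 on the minus strand of GRCm38 and encodes the alpha chain of mature endothelial and many epithelial basement membranes. In the order of the library numbers, it had 716, 616 and 621 normalized counts with the transgene and 562, 414 and 515 without it. The lowest *Shank3* TG library lay above the highest WT library, and WT-2 was the lowest of all. This was a log2 fold change of 0.40 (SE 0.13, 95% interval 0.09 to 0.70), with limma p-values of 0.0172 before and 1 after adjustment. A model with the replicate number as block gave limma p-values of 0.0015 before and 0.464 after adjustment. The difference was 0.35, 0.57 and 0.27 on the log2 scale at the numbers 1, 2 and 3, and it was 0.46 without the libraries numbered 3. Leaving out TG-1 raised the limma p-value to 0.0671, and leaving out WT-2 gave 0.0497.

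*Lamb1* (ENSMUSG00000002900, chromosome 12 from 31265234 to 31329644, plus strand) encodes the beta chain of most early and vascular laminins. It had 444, 538 and 435 normalized counts with the transgene and 387, 361 and 393 without it. TG-2 was the highest library and WT-2 the lowest, and the WT libraries lay close together, with a coefficient of variation of 4.49% against 12.2% in *Shank3* TG. The genotypes differed by a log2 fold change of 0.305 (SE 0.11, 95% interval 0.05 to 0.57), with limma p-values of 0.0271 before and 1 after adjustment. At the numbers 1, 2 and 3 the difference was 0.20, 0.58 and 0.14. It was 0.39 without both libraries numbered 3, and without TG-2 it was 0.21, with a limma p-value of 0.1 before adjustment. Without WT-1 and without WT-2 these limma p-values were 0.0525 and 0.0802.

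*Lama4* (ENSMUSG00000019846, chromosome 10 from 38965515 to 39110188, plus strand) encodes the short alpha chain of endothelial basement membranes. Its normalized counts were 334, 433 and 402 with the transgene and 239.6, 388 and 264 without it. WT-2 lay above TG-1, so that the groups overlapped, and WT had the wider spread, with a coefficient of variation of 26.7%. Its log2 fold change was 0.41 (SE 0.19, 95% interval -0.03 to 0.86), with a limma p-value of 0.0651 before adjustment. The blocked model gave limma p-values of 0.00493 before and 0.572 after adjustment. The difference was 0.48, 0.16 and 0.61 at the numbers 1, 2 and 3. Leaving out WT-2 gave a log2 fold change of 0.62 with a limma p-value of 0.00451, and leaving out WT-1 gave 0.275 with a limma p-value of 0.213. Without both libraries numbered 3 it was 0.32.

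*Lama2* (ENSMUSG00000019899, chromosome 10 from 26980036 to 27619758, minus strand) encodes the alpha chain of muscle and of the astrocyte side of brain vessels, whose loss causes congenital muscular dystrophy. It had 396, 462 and 399 normalized counts with the transgene and 476, 433 and 391 without it. The groups overlapped over most of their range, and this was the lone laminin gene of the 9 with a lower mean in *Shank3* TG. The difference was -0.05 on the log2 scale (SE 0.11, 95% interval -0.31 to 0.22). It was 0.02 without WT-1, -0.12 without TG-2 and -0.085 without both libraries numbered 3.

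*Lama1* (ENSMUSG00000032796, chromosome 17 from 67697259 to 67822647, plus strand) encodes the alpha chain of the pial and other early basement membranes. It had 144, 154 and 117 normalized counts with the transgene and 130.4, 110.0 and 134 without it, the fewest of the 9 genes. Its log2 fold change was 0.14 (SE 0.16), and the difference was 0.15, 0.49 and -0.20 at the numbers 1, 2 and 3. The difference between the genotypes came to 0.06 when WT-2 or TG-2 was left out, 0.26 without TG-3 and 0.32 without both libraries numbered 3, where limma's p-value was 0.0931. *Lama3* (ENSMUSG00000024421, chromosome 18 from 12333819 to 12583013, plus strand) encodes the alpha chain of epithelial laminin, in which it pairs with the product of *Lamb3*. It had 313, 368 and 289 normalized counts with the transgene and 326, 311 and 249 without it, which is 0.13 on the log2 scale (SE 0.14). This was 0.015 without WT-3, 0.035 without TG-2, 0.21 without WT-1 or without TG-3 and 0.09 without both libraries numbered 3. For both genes the groups overlapped, and each was higher in *Shank3* TG at 2 of the 3 numbers.

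*Lamb2* (ENSMUSG00000052911, chromosome 9 from 108479736 to 108490530, plus strand) encodes the beta chain of mature vascular, glomerular and synaptic basement membranes. Its normalized counts were 963, 1048 and 823 with the transgene and 1046, 1035 and 728 without it. The lowest library of each genotype was the one numbered 3, and the groups overlapped. The mean difference was 0.025 on the log2 scale (SE 0.16, 95% interval -0.35 to 0.40), and it was -0.05 without both libraries numbered 3, -0.15 without WT-3 and 0.12 without TG-3. With the block the SE was 0.08.

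*Lamc1* (ENSMUSG00000026478, chromosome 1 from 153218922 to 153332786, minus strand) encodes the gamma chain of most laminins. It had 1121, 1220.0 and 1065 normalized counts with the transgene and 1082, 1108 and 1034 without it, with overlapping groups. Its spread was the narrowest of the 9 genes, with coefficients of variation of 6.91% and 3.49%, and its log2 fold change was 0.08 (SE 0.08, 95% interval -0.11 to 0.27). It was 0.025 without TG-2, 0.05 without WT-3, 0.12 without TG-3 and 0.095 without both libraries numbered 3. *Lamc3* (ENSMUSG00000026840, chromosome 2 from 31887291 to 31946539, plus strand) encodes a gamma chain of retina and cortex that is mutated in a human malformation of the cortical folds. It had 288, 261 and 212 normalized counts with the transgene and 332, 188 and 215 without it. WT-1 was the highest of the 6 libraries and WT-2 the lowest. Its log2 fold change was 0.08 (SE 0.22, 95% interval -0.43 to 0.60) and was below 0 without TG-1 and without WT-2, at -0.01 and -0.08. It was 0.32 without WT-1 and 0.13 without both libraries numbered 3.

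**Figure D1:**
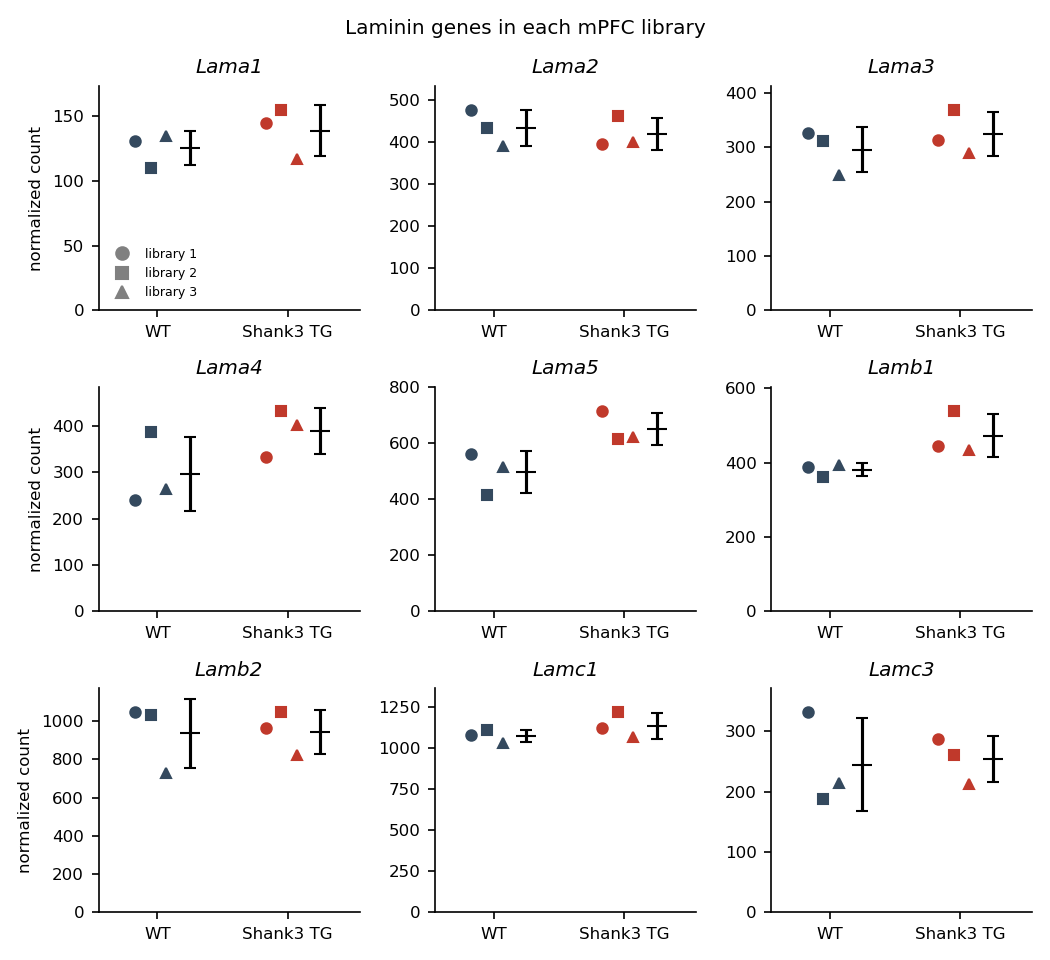
Normalized counts of the 9 laminin genes in each mPFC library (vertical axes from 0, horizontal axis the genotype), with the symbol giving the library number and bars the mean with its SD (n = 3). The groups do not overlap for *Lama5* and *Lamb1*, and they overlap for the other 7 genes.

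Of the 9 genes, 8 had a higher mean in *Shank3* TG and 1 a lower one, and the median log2 fold change was 0.13, against -0.004 over all tested genes, of which 48.6% were higher. Before adjustment, limma's p-value was below 0.05 for 2 of the 9 genes in the higher direction, against 0.933% of all tested genes, and for 0 in the lower direction, against 1.08%. The groups did not overlap for 2 of the 9 in the higher direction against 2.91% of all tested genes, and for 0 in the lower direction against 3.12%. In the blocked model *Lama4* joined *Lama5* and *Lamb1*, which gave 3 genes of 9 against 2.33% of all tested genes in the higher direction. After adjustment the blocked model called none of the 9 and 0.00598% of all tested genes, which was *Shank3* alone. Over all tested genes, the block took the number below 0.05 before adjustment from 336 to 833. Turned into z scores, the limma p-values had a width of 0.731 with genotype alone and 0.996 with the block. The width is taken from the interquartile range and is 1 for standard normal scores. The p-values with genotype alone, and the shares called by them, therefore err on the cautious side. The genes were measured in the same libraries and were chosen with results of these data known, so the counts are a description.

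The number of laminin genes higher in *Shank3* TG was 8 of 9 under each other scaling, filter or pseudocount tried, 7 without both libraries numbered 3 and 7 to 9 when single libraries were dropped. The number below 0.05 before adjustment was 1 instead of 2 without TG-2 and without WT-1, where *Lamb1* no longer passed. Without TG-1 the 2 genes were *Lama4* and *Lamb1*, and without WT-2 they were *Lama4* and *Lama5*. *Lama5*, *Lamb1*, *Lama4* and *Lamc1* were higher in *Shank3* TG at all 3 numbers, as were 11.6% of all tested genes.

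**Figure D2:**
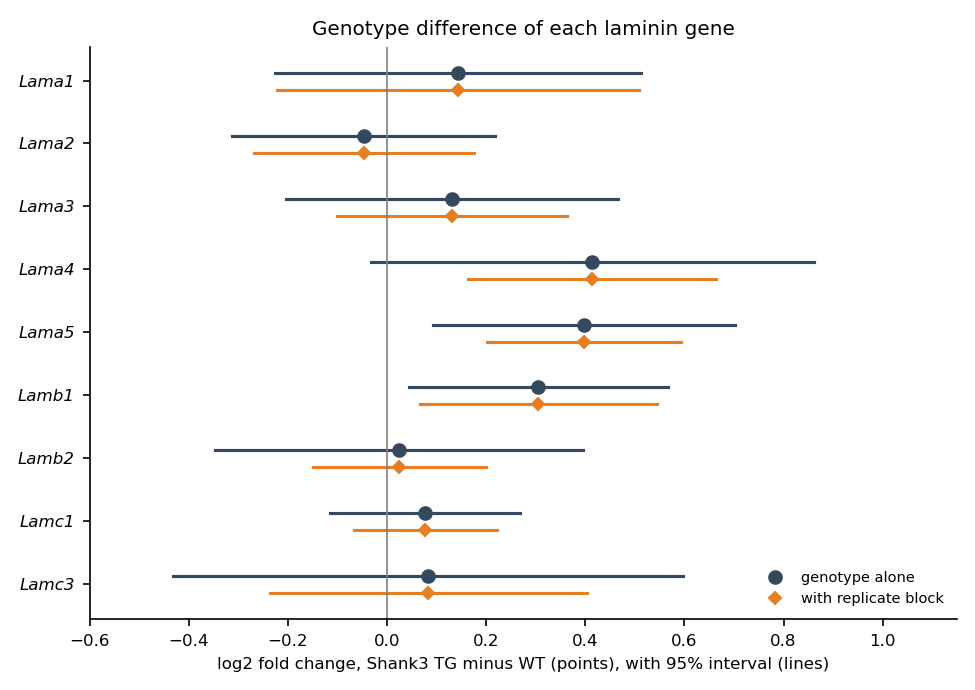
Log2 fold change (horizontal axis, *Shank3* TG minus WT) of the 9 laminin genes with its 95% interval, from the model of genotype alone (circles) and from the blocked model (diamonds). The intervals of *Lama5* and *Lamb1* lie above 0 in both models, and that of *Lama4* starts at -0.03 without the block and at 0.16 with it.

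**Figure D3:**
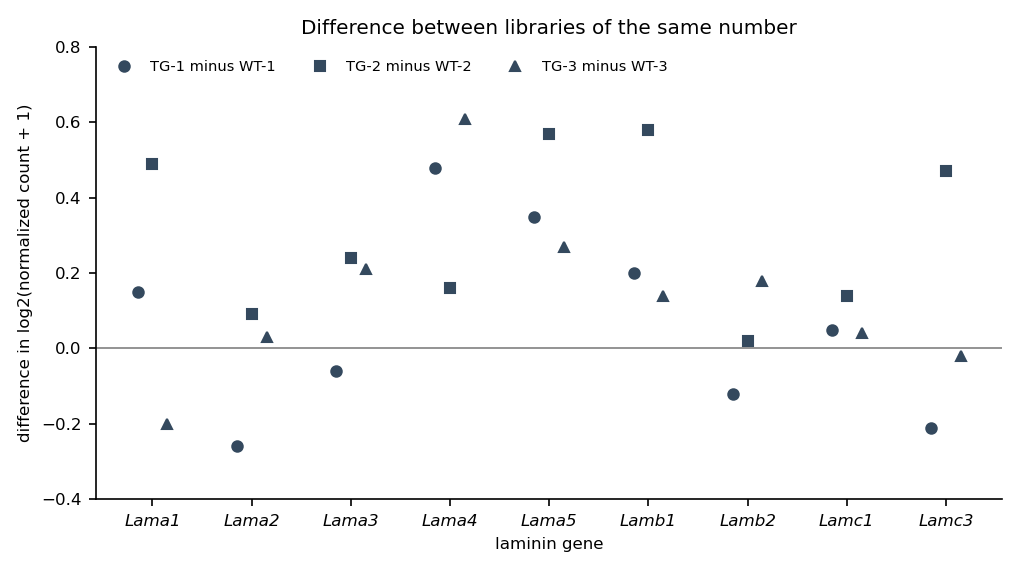
Difference in log2(normalized count + 1) between the *Shank3* TG and the WT library of the same number (vertical axis) for each of the 9 laminin genes (horizontal axis). All 3 differences are above 0 for *Lama4*, *Lama5*, *Lamb1* and *Lamc1*, and *Lamc3* ranges from -0.21 to 0.47.

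To compare levels between genes, normalized counts were divided by the exonic length of each gene in kilobases. On this scale, and as a mean of the 6 libraries, *Lamb2* had 155 and *Lamc1* 134 normalized counts per kb, and their ranges over the libraries overlapped. *Lama5* with 50.4, *Lamb1* with 43.0 and *Lamc3* with 40.9 came next, with overlapping ranges and all below the lowest *Lamc1* value of 125. *Lama3* with 28.8, *Lama4* with 28.5 and *Lama2* with 26.1 followed, overlapping each other, with *Lama3* and *Lama4* also overlapping *Lamc3*, and *Lama1* was the lowest with 13.6 and did not reach the lowest *Lama2* value of 23.9. With the longest transcript as the length, the order after *Lamb2* and *Lamc1* was *Lamb1* with 73.7, *Lama4* with 56.8, *Lama5* with 50.4, *Lama2* with 44.3, *Lamc3* with 42.5, *Lama3* with 29.3 and *Lama1* with 13.8, so the middle of the order depends on the transcript model. *Lamb3* had 13.7 normalized counts per kb.

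Summed over the 5 alpha chains, the level per kb was 159, 168 and 151 normalized counts with the transgene and 142, 135 and 128 without it. The groups did not overlap, and the exact two-sided permutation test gave p = 0.1, the smallest value that 3 libraries against 3 allow, or 0.2 adjusted over the alpha and beta classes. The sum holds the *Lama5* and *Lama4* values described above and was chosen after seeing the data, so it is not separate support. The beta chains had 216 ± 22.2 normalized counts per kb with the transgene (SD, n = 3) and 206 ± 26.2 without it, with an exact permutation p of 0.7. The alpha chain difference of 24.4 normalized counts per kb was 19.9 to 28.5 when single libraries were dropped. The beta chain difference of 9.85 was -1.1 without TG-2, -5.13 without WT-3 and 21.1 without TG-3.

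Within the alpha chains, *Lama5* made up the largest share of the level per kb in WT, with 32.3% ± 4.70 (SD, n = 3), followed by *Lama3* with 20.3% ± 1.88, *Lama2* with 19.6% ± 0.91, *Lama4* with 18.3% ± 4.99 and *Lama1* with 9.57% ± 1.22. In *Shank3* TG the share of *Lama5* was 35.9% ± 3.72 and that of *Lama4* 20.2% ± 2.47, both overlapping WT, and without WT-2 the difference for *Lama5* was 0.921 instead of 3.63 percentage points. The difference for *Lama4* of 1.99 percentage points was -0.16 without WT-1 and 4.72 without WT-2. With the longest transcript as the length, *Lama4* had the largest share in WT with 27.4%, followed by *Lama2* with 25.2% and *Lama5* with 24.5%. The share of *Lama2* was 15.3%, 16.8% and 16.1% in *Shank3* TG and 20.5%, 19.6% and 18.7% in WT. It was lower by 3.52 percentage points without overlap, at an exact permutation p of 0.1 and 0.64 adjusted over the 8 shares compared. The level of *Lama2* itself was 25.6 normalized counts per kb in *Shank3* TG and 26.5 in WT. The summed alpha chains had 160 against 135, so the lower share goes with a larger total. *Lamb2* gave 74.2% ± 5.51 of the beta chain level in WT and 71.7% ± 1.71 in *Shank3* TG, and *Lamb1* 18.8% ± 3.16 in WT (SD, n = 3) and 20.7% to 22.8% in *Shank3* TG. The difference for *Lamb2* of -2.43 percentage points was -5.57 without WT-3 and -0.414 without WT-2, and that for *Lamb1* of 3.17 was 4.99 without WT-3. None of these shares differed at an adjusted p-value under 0.05, which this number of libraries cannot reach.

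**Figure D4:**
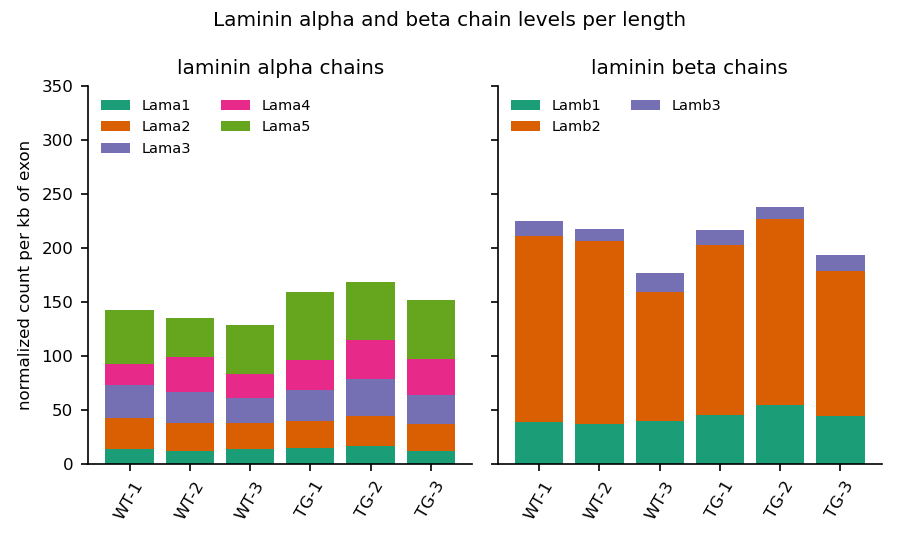
Level of the alpha and beta chain genes in normalized counts per kb of exon (vertical axis, from 0), stacked by chain class for each library (horizontal axis). The summed alpha chains lie between 151 and 168 in *Shank3* TG and between 128 and 142 in WT, and *Lamb2* has the largest segment of the beta class in each library. *Lamb3*, outside the 9 genes, is included.

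The other proteins of the basement membrane bind laminin or lie in the same sheet. Of 18 genes tested, 13 were higher and 5 lower in *Shank3* TG at a median log2 fold change of 0.04, and 4 were below 0.05 by limma before adjustment, all of them higher and without overlap between the groups, where 0.933% of all tested genes were called higher and 2.91% were higher without overlap. The median was 0.21 without TG-3, 0.16 without WT-1 and 0.02 without TG-1. *Smoc2* and *Smoc1*, matricellular proteins that bind calcium, were higher by 0.44 (SE 0.13) and 0.43 (SE 0.12) on the log2 scale. *Nid1*, the nidogen that links the gamma chain of laminin to collagen IV, had 382, 412 and 395 normalized counts with the transgene and 318, 335 and 339 without it, or 0.26 on the log2 scale (SE 0.09). *Fbln1*, a fibulin of elastic and basement membrane matrix, was higher by 0.34 on the log2 scale (SE 0.12). The most abundant genes of this list differed by less than their spread, with log2 fold changes of 0.02 for *Agrn*, -0.02 for *Sparc*, 0.06 for *Col4a2* and 0.02 for *Col4a1*, where agrin clusters receptors and collagen IV forms the network beside laminin. The adjusted p-value of all these genes was 1 in limma's test.

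Laminin is bound by integrins, by dystroglycan and by further surface proteins. Of 14 genes of these receptors tested, 6 were higher and 8 lower, at a median log2 fold change of -0.03. None was below 0.05 by limma before adjustment, against 0.933% of all tested genes called higher and 1.08% called lower. At these shares a list of this length would hold few or none. *Dag1*, which encodes dystroglycan, had 3070.0 ± 167 normalized counts in *Shank3* TG and 3005 ± 147 in WT (SD, n = 3), a log2 fold change of 0.03 (95% interval -0.14 to 0.21). *Itgb1*, the beta subunit of several laminin-binding integrins, had a log2 fold change of -0.03 (95% interval -0.22 to 0.17), *Itgav* of 0.08 and *Sdc2* of 0.05. Inside the cell, dystroglycan is held by the dystrophin complex, of which 7 of 13 tested genes were higher and 6 lower at a median log2 fold change of 0.001. None of the 13 was below 0.05 by limma before adjustment, beside the same 0.933% and 1.08% of all tested genes. *Dmd*, *Utrn*, *Dtna* and *Dtnb*, for dystrophin, utrophin and the dystrobrevins, had log2 fold changes of 0.17, -0.05, 0.05 and 0.06.

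Dystroglycan binds laminin through a sugar chain that a set of enzymes builds. Of 11 genes of these enzymes counted here, 7 were higher and 4 lower, at a median log2 fold change of 0.03, and 1 was below 0.05 by limma before adjustment in the lower direction, as were 1.08% of all tested genes. This was *Ispd*, which makes the activated ribitol donor, with 164, 134 and 125 normalized counts with the transgene and 175, 183 and 172 without it. Its highest *Shank3* TG library lay below its lowest WT library. Such a gap in the lower direction was seen for 2 of the 11 genes, against 3.12% of all tested genes. The difference was -0.33 on the log2 scale (SE 0.14), with limma p-values of 0.047 before and 1 after adjustment. *B4gat1* and *Pomgnt1*, other enzymes of the chain, had log2 fold changes of 0.04 and 0.01.

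Netrins, the membrane-anchored netrin-G proteins and related proteins share domains with laminin. Of 7 such genes tested, 4 were higher and 3 lower, at a median log2 fold change of 0.005. Before adjustment 1 was below 0.05 by limma, in the higher direction, as were 0.933% of all tested genes. In the blocked model 1 gene was below 0.05 in each direction, against 2.33% of all tested genes in the higher one. *Ntn1*, an axon guidance cue, had 346, 302 and 314 normalized counts with the transgene and 324, 171 and 195 without it. WT-1 overlapped the *Shank3* TG libraries, and the difference was 0.53 on the log2 scale (SE 0.23), with limma p-values of 0.0475 before and 1 after adjustment. *Ntn4*, *Ntng1* and *Ntng2* had log2 fold changes of 0.10, -0.03 and 0.005.

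The markers of the cells that make laminins were read beside the laminin genes. All 10 leptomeningeal markers had a higher mean in *Shank3* TG, at a median log2 fold change of 0.27, and 4 of them were below 0.05 by limma before adjustment, against 48.6% and 0.933% of all tested genes. In the blocked model 6 of them were below 0.05, against 2.33%. Their summed level was 4782 to 5693 normalized counts in *Shank3* TG and 4138 to 4651 in WT, without overlap, and no marker was at 0 in any library. *Igf2*, the growth factor made by leptomeningeal cells, had 1990.4, 2278 and 1938 normalized counts with the transgene and 1856, 1624 and 1759 without it, or 0.24 on the log2 scale (SE 0.09). *Col1a2*, a collagen I chain of fibroblasts, differed by 0.09 on the log2 scale (SE 0.15). The sum, like *Lama5* and *Lamb1*, was thus higher in each *Shank3* TG library, while single markers separated the groups in 4 of 10 cases, against 2.91% of all tested genes. Their part in the laminin differences was not tested. Without both libraries numbered 3, 9 of the 10 markers were higher.

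Endothelial markers were higher for 6 and lower for 4 of 10 genes, at a median log2 fold change of 0.007 and a summed level of 12886 to 13167 normalized counts in *Shank3* TG against 12300.3 to 13886 in WT. Mural markers were higher for 5 and lower for 5 of 10, with a median of 0.02 and 7199 to 8835 against 7784 to 9019 normalized counts. Astrocyte markers were higher for 3 and lower for 7 of 10, with a median of -0.02. None of these markers was below 0.05 by limma before adjustment, against 0.933% of all tested genes called higher and 1.08% called lower. The groups overlapped in the sum of each of these lists. *Slc2a1* and *Flt1* of endothelium had log2 fold changes of -0.04 and -0.08, *Rgs5* and *Vtn* of mural cells -0.03 and 0.07, and *Slc1a2* and *Aldoc* of astrocytes -0.02 and -0.03. Choroid plexus markers summed to 245, 136 and 603 normalized counts with the transgene and 111, 136 and 197 without it, and of these *Ttr*, the transthyretin of choroid plexus epithelium, made up 127, 22.9 and 445 against 14.3, 12.6 and 41.7. Oligodendrocyte markers were lower for 10 of 10 genes, of which 9 were below 0.05 by limma before adjustment and 9 did not overlap, against 1.08% and 3.12% of all tested genes, at a median log2 fold change of -0.435 and summed levels of 43278 to 56162 against 62629 to 73147 normalized counts.

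**Figure D5:**
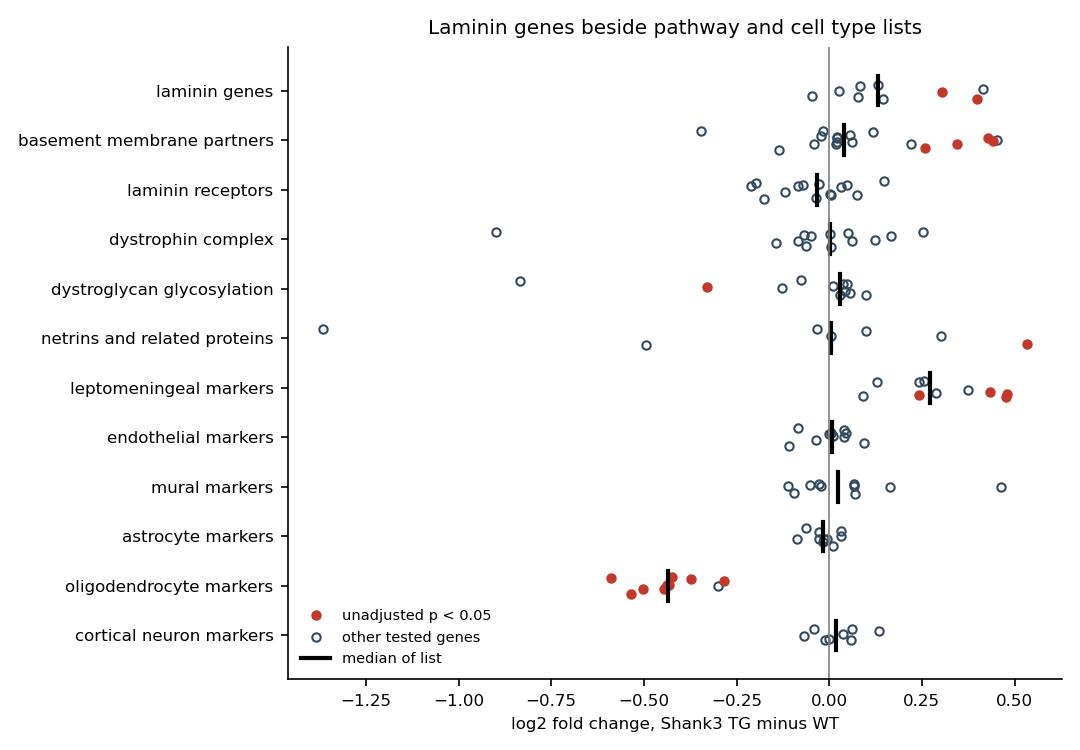
Log2 fold change (horizontal axis, *Shank3* TG minus WT) of each tested gene of the laminin selection, of pathway lists and of cell type lists (vertical axis), with filled points for an unadjusted p-value under 0.05 and a bar at the list median. The medians are 0.13 for the laminin genes, 0.27 for leptomeningeal markers, 0.007 for endothelial markers and -0.03 for laminin receptors.

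The genes most like each laminin gene over the 6 libraries were found by the root mean square difference of log2(normalized count + 1), each gene centred on its own mean, among 13455 genes with a mean of at least 50. *Bmp4*, a growth factor, was nearest to *Lama5*, with a difference of 0.0726 where the centred *Lama5* values themselves had a root mean square of 0.248. *Bmp4* had 102, 98.0 and 97.1 normalized counts with the transgene and 91.8, 62.8 and 84.9 without it, so that it also had its lowest value in WT-2. *Hap1* and the leptomeningeal marker *Igf2* were nearest to *Lamb1*, at 0.0482 and 0.0522. *Gm20518* and *Mtmr1* were nearest to *Lama4*, at 0.112 and 0.133 against its own 0.316. *Ephb4* and *Cldn5*, a receptor and a tight junction protein of endothelium, were nearest to *Lamc3*, at 0.086 and 0.0894. *Acot7* and *Ubxn11* were nearest to *Lamb2*, *Atg12* and *Cep89* to *Lamc1*, *Whrn* and *Tmem151b* to *Lama2*, *Pdxdc1* and *Sorcs2* to *Lama3*, and *Mfng* and *Tcn2* to *Lama1*. Among the laminin genes themselves, *Lama3* and *Lamb2* were the closest pair, at 0.086. The nearest genes are the closest of 13455 over 6 libraries, and their values include the genotype difference. Likeness here does not show which cells make a laminin chain, which was not tested.

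In GENCODE release M21 the laminin genes have between 28 and 79 merged exons, with *Lama5* at 79 within 49.5 kb and *Lama2* at 66 across 639.7 kb. An antisense gene shares exonic bases with *Lama2* (3.86% of its exonic length), *Lama3* (1.83%) and *Lamc3* (6.27%), and no exonic base of *Lama1*, *Lama4*, *Lama5*, *Lamb1*, *Lamb2* or *Lamc1* lies in another gene. The libraries were stranded, while the strand setting of the quantification is not given in the sources used here.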

How the data were processed

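RNA sequencing libraries of the mPFC of *Shank3* TG and WT mice were compared, 3 of each genotype. The authors estimated transcript abundance with Salmon 0.9.1 on GRCm38 with GC bias correction, summed it to genes with tximport and divided it by size factors in DESeq2 1.19.11 (R 3.6.0). The deposited values are this signal, normalized counts for 18254 genes, and are not whole reads, so no count model and no counting interval was used. Genes were named by GENCODE release M21 (18215 named). Genes averaging 5 or more normalized counts, 16714 in all, were compared on log2(normalized count + 1) with limma 3.58.1 in R 4.3.3 (genotype alone, eBayes with trend), two-sided, with Benjamini-Hochberg adjustment at 0.05. Single values used exact permutation tests (SciPy 1.17.1). Levels per length used merged exons. The fits were checked on simulated data.

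The laminin genes, lists and tests were chosen with earlier results of these data known. Genes were named if laminin genes, if at an unadjusted p-value under 0.05 or among the 4 most abundant of a pathway list, if among the 2 most abundant of a cell type list (some only by count), or if among the 2 nearest in pattern. Replicate numbers were taken to pair the libraries, because the correlation across genes of deviations from genotype means was 0.30, 0.33 and 0.62 for equal numbers and at most 0.27 otherwise (deviations sum to 0 within a genotype, so these values are not independent). Alternatives were other pseudocounts, filters, scalings, variance models, an empirical null, the block and libraries left out. Promoters came from RefSeq (GRCm38.p6), whose table held 4 of the 9 genes. Protein sequences were not used here. Some genes, and the sums and shares that need them, are not reported here, and list counts leave them out.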

Additional observations from a re-analysis of the deposited data

How the results depend on the processing

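The median standard error over all tested genes was 0.132 on the log2 scale, and in this limma model no laminin difference passed adjustment over all genes. The study, which used DESeq2 with an empirically estimated null, listed *Lama5* among the genes higher in *Shank3* TG mPFC. The number of genes called by limma after adjustment was 0 with genotype alone, 1 with the robust option, 1 with the replicate block, 1 without both libraries numbered 3 and 26 with the empirical null, and 0 to 1 when single libraries were dropped. Before adjustment 336 genes were below 0.05 by limma with genotype alone, 833 with the replicate block, 1215 with the empirical null, and 219 (without TG-1) to 417 when single libraries were dropped. With the replicate block and with the empirical null, *Lama4* was the third laminin gene at an unadjusted p-value under 0.05, and the adjusted p-value of *Lama5* was 0.464 and 0.16. The number of laminin genes at that threshold was 1 to 2 when single libraries were dropped, and their median log2 fold change 0.05 to 0.21. The log2 fold change of *Lamb2* turned to -0.051 and that of *Lamb3* to 0.013 without both libraries numbered 3, and with single libraries left out the lowest and highest values were -0.147 and 0.121 for *Lamb2*, -0.223 and 0.087 for *Lamb3*, -0.119 and 0.023 for *Lama2* and -0.084 and 0.323 for *Lamc3*. Those of *Lama1*, *Lama3* and *Lamc1* kept their direction, at 0.056 to 0.262, 0.015 to 0.209 and 0.025 to 0.122. With single libraries left out, list medians close to 0 took both signs, at -0.064 to 0.015 for laminin receptors, -0.036 to 0.036 for the dystrophin complex, -0.038 to 0.055 for the glycosylation enzymes, -0.03 to 0.057 for the netrin list, -0.056 to 0.081 for endothelial, -0.071 to 0.151 for mural and -0.078 to 0.079 for astrocyte markers, while that of the leptomeningeal markers was 0.212 to 0.357. The cause was not tested. The replicate block changed no other call of a laminin gene. The summed level per length and its alternatives were chosen after seeing the data.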
